A study of Homo sapiens with 33 samples.

Results

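The DLX genes encode homeodomain transcription factors related to Drosophila Distal-less, and they were chosen here by name: DLX1, DLX2, DLX3, DLX4, DLX5 and DLX6. These are 6 of the 35805 genes in the RNA-seq table, and 22 of the 153958 windows around start sites in the ChIP-seq table carry their names. The study used H9, a human embryonic stem cell (ESC) line, in which EZH2 was disrupted with CRISPR/Cas9. The states compared were 4, namely EZH2+/+ (the parental line), EZH2-/+ (1 allele disrupted), EZH2-/- (both alleles disrupted), and EZH2-/- with a doxycycline-induced EZH2 transgene, written EZH2-/-+EZH2. The EZH2-/- line had been made by targeting an EZH2-/+ line again while the piggyBac transgene was switched on, the edited lines were picked as clones, and all cells were grown on feeder cells and sorted for the surface antigen SSEA4. There were 3 RNA-seq libraries for each state. ChIP-seq covered H3K4me1, H3K4me3, H3K27ac and H3K27me3 beside input in all 4 states, and EZH2 in EZH2+/+ ESCs.

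In mammals the DLX genes lie as 3 pairs, each with its genes pointing at each other, and paired members share enhancers in the stretch between them. DLX1, DLX2, DLX5 and DLX6 act in the ventral forebrain, where they direct the making of GABAergic neurons, and in the facial arches and limbs. DLX3 acts in skin, hair, teeth and placenta, and DLX4 is known from placenta and from blood and tumour cells. EZH2 is the methyltransferase of Polycomb repressive complex 2 (PRC2), which places H3K27me3, a mark of silent developmental genes. In ESCs many such genes also carry H3K4me3, a mark of start sites that is otherwise found at active genes, and are then called bivalent.

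Of the 3 pairs, DLX1 and DLX2 occupy chr2:172084740-172089677 on the plus strand and chr2:172099439-172102900 on the minus strand of GRCh38. Their facing ends are 9761 bases apart. DLX6 at chr7:97005548-97011039 (plus strand) and DLX5 at chr7:97020392-97025097 (minus strand) are 9352 bases apart. DLX6 lies within DLX6-AS1, an antisense gene at chr7:96955141-97014065. DLX4 at chr17:49968970-49974959 (plus strand) and DLX3 at chr17:49990005-49995224 (minus strand) are 15045 bases apart, the widest of the gaps.

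The sequences before 2 of the start sites are shown as sequence because they lie at the centre of the windows in which H3K27me3 and EZH2 were measured and because no exon of the gene itself is in them. They come from RefSeq on GRCh38.p14 and are written in the direction of the gene. The DLX2 stretch is chr2:172102901-172103150 (minus strand) and reaches into the divergent gene DLX2-AS1, and the DLX6 stretch is chr7:97005303-97005547 (plus strand). Capitals mark CCAAT (or its reverse, ATTGG) and GGGCGG (or CCGCCC), searched on both strands.
DLX2: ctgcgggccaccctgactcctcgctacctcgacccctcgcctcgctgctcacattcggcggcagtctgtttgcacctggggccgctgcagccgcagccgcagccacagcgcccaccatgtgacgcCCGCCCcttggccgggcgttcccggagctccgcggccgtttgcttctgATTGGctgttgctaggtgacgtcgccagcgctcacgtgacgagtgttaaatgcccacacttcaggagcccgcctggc
DLX6: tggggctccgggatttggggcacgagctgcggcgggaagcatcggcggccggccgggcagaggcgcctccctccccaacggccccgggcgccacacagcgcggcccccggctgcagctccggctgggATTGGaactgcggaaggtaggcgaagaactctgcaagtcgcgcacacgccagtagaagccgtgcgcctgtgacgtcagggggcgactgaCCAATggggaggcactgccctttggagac

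CCAAT, the box bound by NF-Y, occurred once in the DLX2 stretch and 2 times in that of DLX6, and 32.0% of all 35116 RefSeq promoters hold it in the 250 bases before the start. GGGCGG, the core of a GC box, occurred once before DLX2 and is in 42.6% of promoters. Neither TATAAA (10.7% of promoters) nor TAATTA, the core recognized by many homeodomains (4.35%), occurred in these letters. The table held DLX1 as well, whose RefSeq start lies inside the gene model used for the counts, and had no entry for DLX3, DLX4 and DLX5. The 250 bases before DLX2 hold 25 CG dinucleotides, and so do those before DLX6.

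The wider windows were CG rich too. For each gene the window with the most H3K27me3 in EZH2+/+ ESCs was used, 5 kb long and centred on a start site. CG dinucleotides made up 11.4% of the bases at DLX1, 10.5% at DLX2, 10.3% at DLX3, 6.52% at DLX4, 7.52% at DLX5 and 10.2% at DLX6, and the median over the windows of 35670 gene names was 4.28%. Among gene names with H3K27me3 in EZH2+/+ ESCs the median was 7.44%, so DLX4 lay below it and DLX5 close to it.

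All 6 DLX genes carried H3K27me3 at levels near the top of the genome in EZH2+/+ ESCs. The values are RPM, the reads in the window scaled to the size of the library, and the interval in brackets is a 95% Poisson interval that covers counting error only. Each histone value is a mean over libraries made by the authors, so no replicate error can be given. The labels name 2 libraries per mean while the study's text speaks of 3, and the intervals take 2. DLX4 stood highest at 55.4 RPM (52.0 to 58.9), followed by DLX1 at 47.3 RPM (44.2 to 50.6). DLX5 was at 44.7 RPM (41.7 to 47.9) and DLX3 at 38.1 RPM. DLX6 had 36.3 RPM and DLX2 33.8 RPM (31.1 to 36.5). The interval of DLX4 was clear of that of DLX1, whereas DLX1 and DLX5 overlapped, as did DLX3 with DLX6 and DLX6 with DLX2.

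These levels were above those of 98.7% (DLX2) to 99.9% (DLX4) of the 35683 gene names, whose median was 1.96 RPM. A promoter was counted as marked in EZH2+/+ ESCs when input was under 0.1 and H3K27me3 over 0.1 log2 RPKM. All 22 DLX windows met this, and 17.5% of all gene names did. Input was 1.04 to 1.66 RPM at the 6 genes, against a median of 1.51 RPM. H3K27me3 stood 23.6 times (DLX3) to 36.3 times (DLX1) over input, and the median of marked promoters was 8.64.

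EZH2 itself occupied the same windows. DLX1 had 8.14 RPM (7.58 to 8.75), DLX6 6.04 RPM, DLX2 5.79 RPM and DLX5 5.45 RPM. DLX3 was at 3.69 RPM (3.31 to 4.10) and DLX4 at 3.56 RPM (3.19 to 3.97), so the chromosome 17 pair had less EZH2 than the other pairs in these windows. For DLX4 this depended on which of its windows was used, as given below. The median over all gene names was 0.29 RPM, and the lowest of the 6 was still above 98.4% of them.

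The order of the DLX genes by EZH2 was thus not their order by H3K27me3. In the windows used, DLX4 had the most H3K27me3 and the least EZH2. Within DLX4 the value depended on the start site, however. Its 6 windows held 3.56 to 7.78 RPM of EZH2 while H3K27me3 ranged only from 49.9 to 55.4 RPM, and the window with 7.78 RPM (chr17:49969464-49974464) was centred inside the gene. That window had 55.2 RPM of H3K27me3, against 55.4 RPM in the window used. The low place of DLX4 by EZH2 thus rests on a near tie in H3K27me3. The 7 windows of DLX1 spanned 7.66 to 8.17 RPM of EZH2, and they overlap and share reads.

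**Figure D1:**
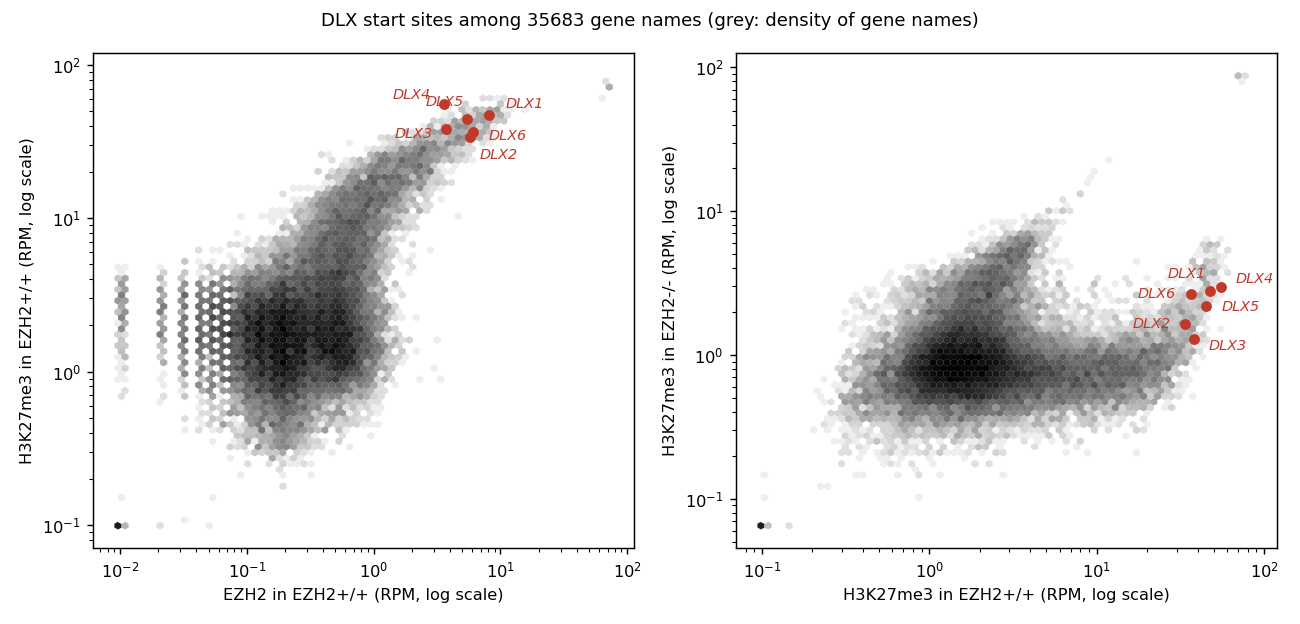
Left, H3K27me3 against EZH2 in EZH2+/+ ESCs, and right, H3K27me3 in EZH2-/- against EZH2+/+ ESCs, both in RPM on log axes, with grey for the density of 35683 gene names and red points for the 6 DLX genes. The DLX genes lie at 33.8 to 55.4 RPM of H3K27me3 and 3.56 to 8.14 RPM of EZH2 on the left, and at 1.29 to 2.97 RPM on the vertical axis on the right.

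H3K4me3 was also present at the 6 start sites in EZH2+/+ ESCs. DLX5 had 18.6 RPM (15.5 to 22.1), DLX1 16.6 RPM and DLX3 15.2 RPM. DLX6 had 12.4 RPM, DLX4 10.5 RPM and DLX2 8.70 RPM (6.68 to 11.3). The median was 3.60 RPM over all gene names and 9.14 RPM over marked promoters, so DLX2 alone of the 6 lay below the second of these, by less than its counting error. H3K4me1, found at enhancers and at the edges of start sites, was 4.51 to 6.78 RPM against a median of 2.64 RPM. H3K27ac, a mark of active promoters and enhancers, was low: 1.08 (DLX2) to 1.67 RPM (DLX3), each below the median of 2.04 RPM over all gene names.

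In EZH2-/- ESCs H3K27me3 at the DLX genes fell to 3.40% (DLX3) to 7.25% (DLX6) of the EZH2+/+ value. The levels were 2.81 RPM at DLX1, 1.64 RPM at DLX2, 1.29 RPM at DLX3, 2.97 RPM at DLX4, 2.20 RPM at DLX5 and 2.63 RPM at DLX6. On the log2(RPM + 0.1) scale the changes ranged from -4.78 at DLX3 (counting interval -5.26 to -4.29) to -3.74 at DLX6 (-4.09 to -3.39), with a median of -4.23. All 6 fell by 1 or more, as did 48.0% of all gene names and 98.3% of marked promoters. The median change was -3.67 over marked promoters and -0.94 over all gene names. All 6 lay on the deeper side of the median of marked promoters. DLX3 stood at percentile 8.82 of the changes of marked promoters, where 0 is the deepest loss, and DLX6 at percentile 46.8. Their EZH2+/+ levels were also above the median of 11.7 RPM over marked promoters, and the part of this in the loss was not tested.

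Relative to EZH2-/-+EZH2 ESCs the change was -4.26 (DLX3) to -3.55 (DLX6), where 37.3% of gene names and 97.3% of marked promoters fell by 1 or more.

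What was left differed between the genes. At DLX2 and DLX3 the EZH2-/- signal was 1.07 times input. At DLX1, DLX4, DLX5 and DLX6 it was 1.97 to 2.30 times input. All 6 were above the median of 0.62 over marked promoters, with DLX2 and DLX3 at percentile 81.3 of these. RPM is relative to all reads of a library, and a given RPM need not stand for the same amount of the mark in EZH2-/- and EZH2+/+ cells. At promoters not marked in EZH2+/+ ESCs the median change was -0.67, and set against these the median of the 6 genes was -3.56.

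With the transgene switched on, H3K27me3 returned to all 6 genes. DLX5 reached 41.8 RPM, or 93.4% of its EZH2+/+ value, DLX2 30.0 RPM (88.8%) and DLX6 31.9 RPM (87.9%). DLX1 reached 37.1 RPM (78.5%), DLX4 43.2 RPM (78.0%) and DLX3 26.6 RPM (69.8%). The change at DLX3 was -0.52 (counting interval -0.66 to -0.37), and that at DLX5 -0.10 (-0.23 to 0.03). None of the 6 was lower by 1 or more than in EZH2+/+ ESCs, where 5.6% of gene names were. The median of the 6 genes was -0.27, that of all gene names -0.27 as well, and centred on unmarked promoters the median of the DLX genes was -0.01.

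EZH2-/+ ESCs had as much H3K27me3 as EZH2+/+ ESCs at the DLX genes or slightly more. Values were 36.5 (DLX2) to 57.2 RPM (DLX4), and the changes ran from 0.05 at DLX4 (counting interval -0.07 to 0.16) to 0.28 at DLX5 (0.15 to 0.40). No DLX gene changed by 1 or more on the log2 scale, where 4.49% of gene names fell and 0.653% rose by that much. Of marked promoters 1.54% fell and 0.577% rose by that much. Over all gene names the median change was -0.15.

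**Figure D2:**
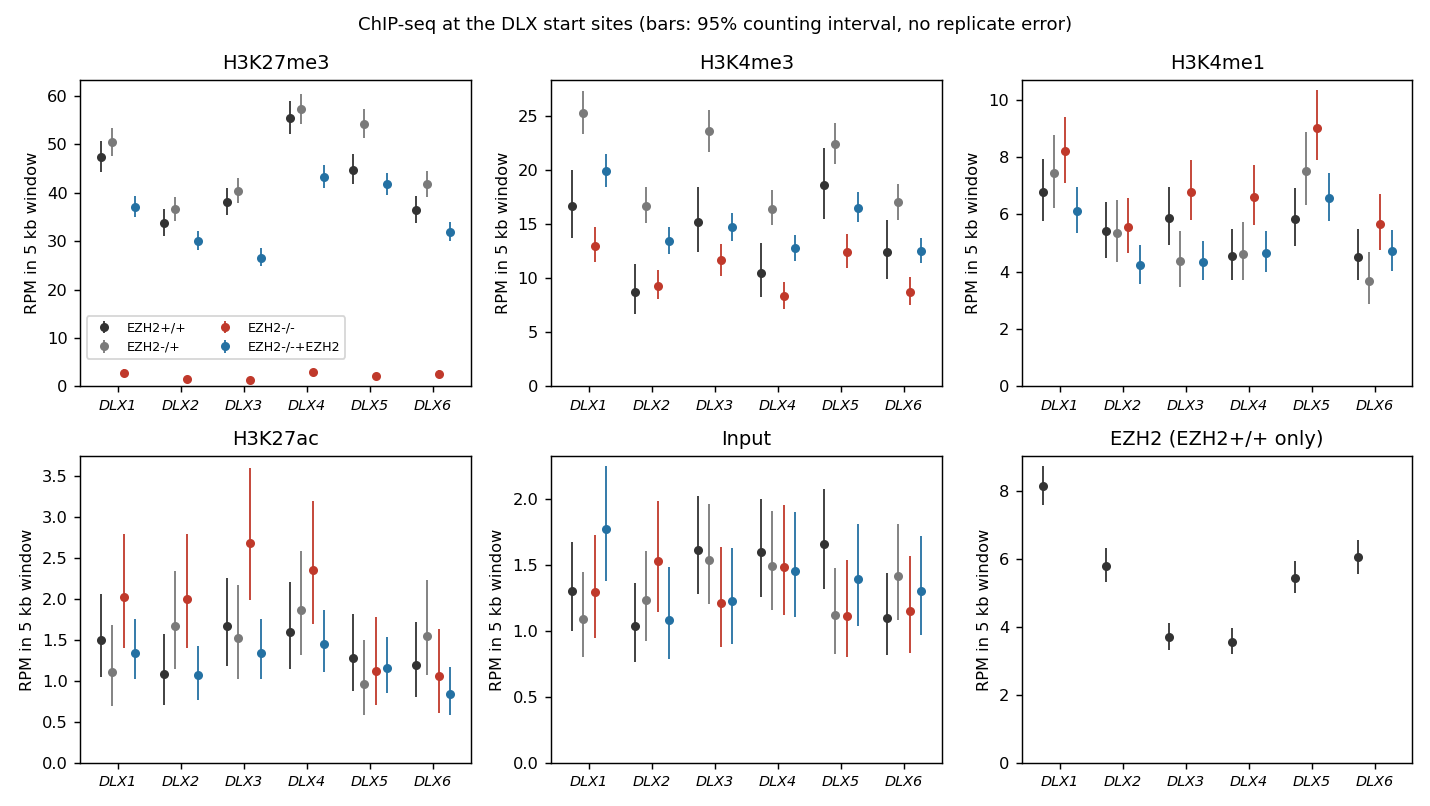
ChIP-seq signal in RPM (vertical axis, linear from 0) at the 5 kb window of each DLX gene, by mark and by state of EZH2, with bars for the 95% Poisson interval of the counts. H3K27me3 is at 1.29 to 2.97 RPM in EZH2-/- ESCs and at 26.6 RPM or more in every other state, whereas H3K27ac is at or under 2.68 RPM throughout.

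The other marks moved far less. H3K4me3 in EZH2-/- ESCs was 8.34 (DLX4) to 13.0 RPM (DLX1), a change of -0.58 at DLX5, -0.51 at DLX6, -0.38 at DLX3, -0.35 at DLX1, -0.32 at DLX4 and 0.10 at DLX2. The median of the 6 was -0.37, against -0.03 over marked promoters and -0.17 over all gene names. None passed 1 on the log2 scale in that direction, where 12.6% of gene names and 4.14% of marked promoters did. Relative to EZH2-/-+EZH2 ESCs all 6 were lower in EZH2-/- ESCs, with changes from -0.33 at DLX3 (-0.55 to -0.11) to -0.61 at DLX1 (-0.81 to -0.41). Judged from the lowest value in each column, which was taken as 0.9 of a read, the depth behind H3K4me3 was 3426083 reads in EZH2+/+ ESCs, against 10327471 to 17385575 in the other states. The values of DLX1 in EZH2+/+, EZH2-/+ and EZH2-/-+EZH2 ESCs were 16.6, 25.2 and 19.9 RPM.

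At each DLX gene H3K4me1 was above the EZH2-/-+EZH2 level in EZH2-/- ESCs, by 0.26 (DLX6) to 0.62 (DLX3). Only the interval of DLX6 reached 0 (-0.06 to 0.58). Over marked promoters the median was 0.32. Against EZH2+/+ ESCs the changes were 0.04 (DLX2) to 0.62 (DLX5), and only the intervals of DLX4 (0.18 to 0.89) and DLX5 (0.31 to 0.93) were clear of 0.

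H3K27ac in EZH2+/+ ESCs was near input at these windows, for example 1.08 against 1.04 RPM at DLX2 and 1.67 against 1.61 RPM at DLX3. H3K27ac was higher in EZH2-/- than in EZH2+/+ ESCs by 0.83 at DLX2 (0.10 to 1.56) and by 0.65 at DLX3 (0.05 to 1.26). Input at DLX2 was also higher, at 1.53 RPM in EZH2-/- ESCs (a change of 0.52, -0.04 to 1.08), and that at DLX3 was lower (-0.39, -0.93 to 0.15), and the part of input in these changes was not tested. At DLX1 and DLX4 H3K27ac was 0.41 and 0.53 higher with intervals that include 0, and at DLX5 and DLX6 0.17 lower, likewise within counting error. Relative to EZH2-/-+EZH2 ESCs the changes were 0.95 at DLX3 (0.39 to 1.51) and 0.84 at DLX2 (0.20 to 1.48). At DLX4 the change was 0.67 (0.09 to 1.24), also clear of 0. Those at DLX1 (0.56), DLX6 (0.30) and DLX5 (-0.04) had intervals that include 0. Over marked promoters the median of that comparison was 0.67. The median H3K27ac of marked promoters was 1.55 RPM in EZH2+/+ ESCs, against 2.51 RPM in the EZH2-/- state. At the DLX genes it went from 1.39 to 2.01 RPM, which is still below the median of 2.58 RPM over all gene names in EZH2-/- ESCs.

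Only windows at start sites were measured around the pairs, and in each case the highest H3K27me3 was at a DLX gene. Within 300 kb of the middle of DLX1-DLX2, 4 other gene names had a window, the highest being METAP1D at 4.03 RPM, and none met the rule for marked promoters. Near DLX6-DLX5 the only other gene name was ACN9, at 1.72 RPM. Between DLX6 and DLX5, windows of DLX6-AS1 centred within 4 kb of the middle of the pair carried 30.9 to 35.8 RPM, while EZH2 there was 1.82 to 2.00 RPM and H3K4me3 3.03 to 4.54 RPM. The stretch between the facing ends thus held nearly as much H3K27me3 as the start of DLX6 with less EZH2.

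The DLX4-DLX3 pair lies in a gene-dense stretch with 27 other gene names, of which 9 were marked, where 17.5% of all gene names were. The highest, RP11-1094H24.3, had 28.1 RPM in a window that overlaps that of DLX3. The others were lower, with ITGA3 (an integrin) at 14.8 RPM, COL1A1 (type I collagen) at 15.6 RPM and SAMD14 at 11.1 RPM. In EZH2-/-+EZH2 ESCs RP11-1094H24.3 stood at 18.8 RPM, COL1A1 at 8.47 RPM, ITGA3 at 5.10 RPM and SAMD14 at 3.64 RPM, and DLX4 and DLX3 stood at 43.2 and 26.6 RPM.

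**Figure D3:**
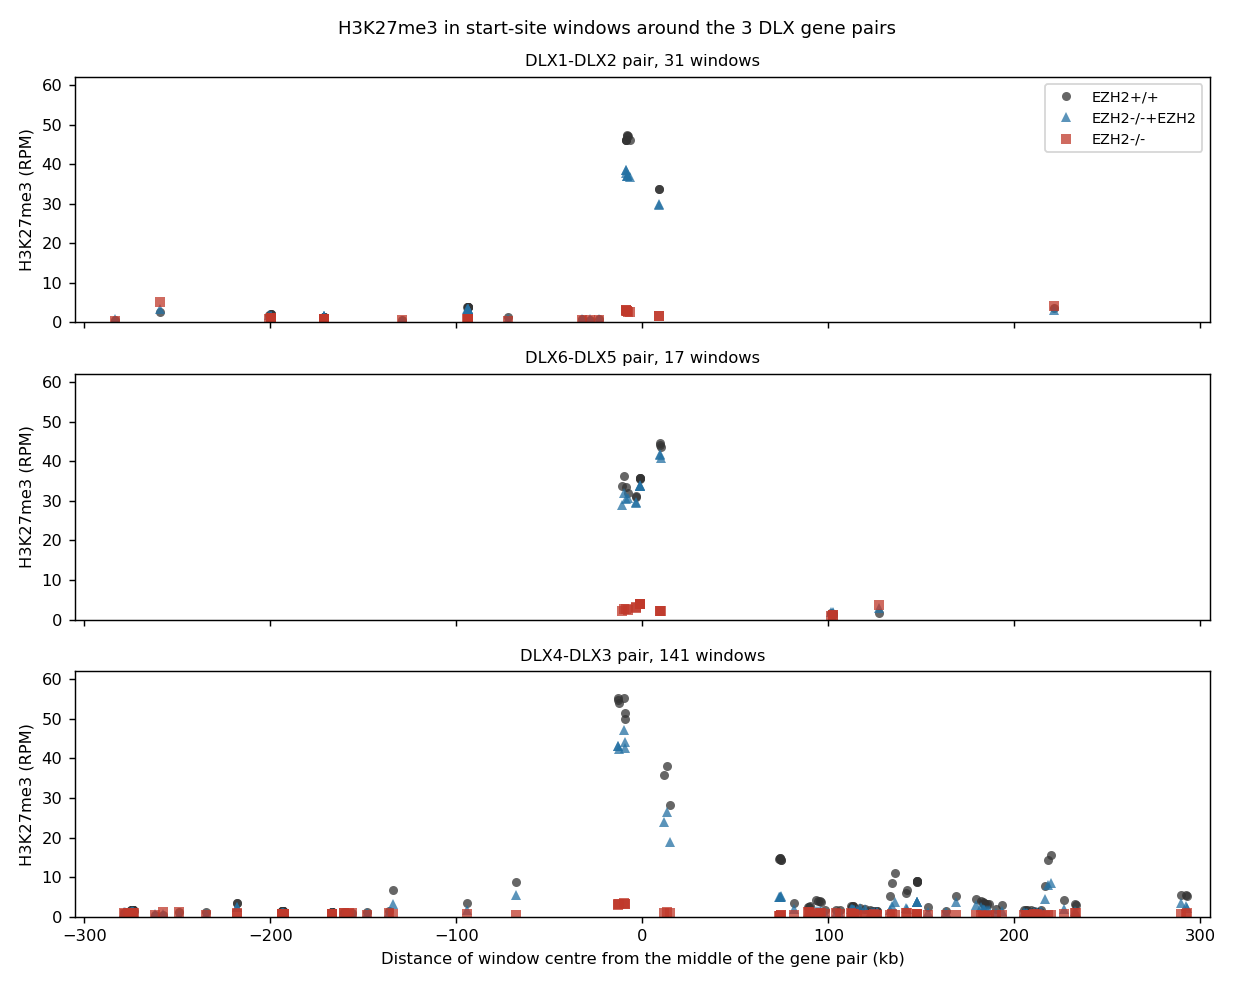
H3K27me3 in RPM (vertical axis) in every start-site window whose centre is within 300 kb of the middle of a DLX pair, by distance in kb (horizontal axis), in EZH2+/+, EZH2-/-+EZH2 and EZH2-/- ESCs. The DLX windows near 0 reach 31.9 to 55.4 RPM in EZH2+/+ ESCs, windows of genes other than DLX genes and their antisense genes stay at or under 28.1 RPM, and EZH2-/- values at the DLX genes are far below both other states.

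RNA-seq recorded little transcription of the DLX genes in any state. The 12 libraries held 16587860 to 36589089 reads on genes, and 3 reads corresponded to 0.0528 to 0.120 RPM. The EZH2 gene checks the labels: it was at 59.5 to 68.6 RPM in EZH2+/+, 45.7 to 55.4 RPM in EZH2-/+, 8.65 to 11.5 RPM in EZH2-/- and 256 to 385 RPM in EZH2-/-+EZH2 libraries. The study calls the 3 libraries of a state biological replicates, and the labels do not say whether they came from separate cultures, so p values measure only the spread between these libraries, and fewer cells with a transcript cannot be told apart from less transcript per cell. The test took genes whose mean reached 0.1 RPM, and DLX3 and DLX4 passed, whereas DLX1, DLX2, DLX5 and DLX6 did not.

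DLX4 and DLX3 were the only members with reads in every library. DLX4 was measured at 0.80, 1.01 and 1.73 RPM in EZH2+/+ libraries 1 to 3, at 0.59, 0.63 and 1.05 RPM in EZH2-/+, at 0.40, 0.36 and 1.42 RPM in EZH2-/- and at 0.93, 0.62 and 1.28 RPM in EZH2-/-+EZH2 ESCs. Library 3 was the highest of its state each time, and the states overlapped. In EZH2-/- relative to EZH2+/+ ESCs the log2 fold change was -0.79 (adjusted p = 0.21, limma over all genes tested; standard error 0.46). Libraries of the same number were taken as pairs from correlations in these same data, and the labels do not state such pairs. A block on the numbers gave DLX4 an adjusted p of 0.0385 in limma. With it DLX4 passed the threshold as lower, as did 28.0% of genes tested in that fit (18.8% without the block). Without EZH2-/- library 3 the change was -1.35 and the adjusted p from limma 0.029.

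DLX3 was at 0.36, 0.61 and 1.33 RPM in EZH2+/+ libraries, 0.29, 0.39 and 0.30 RPM in EZH2-/+, 0.49, 0.79 and 1.51 RPM in EZH2-/-, and 0.31, 0.35 and 0.32 RPM in EZH2-/-+EZH2 libraries. Every EZH2-/- library was above every EZH2-/-+EZH2 library, while the EZH2+/+ and EZH2-/- libraries overlapped. Set against EZH2-/-+EZH2 ESCs, the EZH2-/- level was higher by a log2 fold change of 1.16 (standard error 0.43), which did not pass the threshold (adjusted p = 0.18 from limma, and 0.064 with the block). In that comparison 2.63% of genes were called as higher and 0.524% as lower. Relative to EZH2+/+ ESCs the change of DLX3 was 0.29 in EZH2-/- ESCs (adjusted p = 0.63 from limma), -0.86 in EZH2-/+ ESCs (adjusted p = 0.52) and -0.86 in EZH2-/-+EZH2 ESCs (adjusted p = 0.23).

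With these settings neither of the 2 DLX genes tested was called in any of the 4 comparisons. Of all 20608 genes tested, 3.15% were called between EZH2-/- and EZH2-/-+EZH2, 31.4% between EZH2-/- and EZH2+/+, 1.15% between EZH2-/+ and EZH2+/+, and 10.3% between EZH2-/-+EZH2 and EZH2+/+ ESCs. Without adjustment the limma p of DLX3 was 0.019 in the first of these comparisons, and no other p of DLX3 or DLX4 was under 0.05. Between EZH2-/- and EZH2+/+ ESCs 2593 genes (12.6%) were called as higher and 3870 as lower, and with RPM rescaled by the median ratio 3378 and 2822, as this moves the median change of all genes from -0.13 to -0.01. With the block the calls between EZH2-/- and EZH2-/-+EZH2 ESCs went from 542 higher and 108 lower to 1276 and 661, those between EZH2-/+ and EZH2+/+ from 37 and 199 to 148 and 446, and those between EZH2-/-+EZH2 and EZH2+/+ from 701 and 1422 to 1290 and 3321. Per kb of exon, the EZH2+/+ medians were 0.244 RPKM for DLX4 and 0.224 RPKM for DLX3, whose ranges (0.192 to 0.415 and 0.131 to 0.491 RPKM) overlapped.

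**Figure D4:**
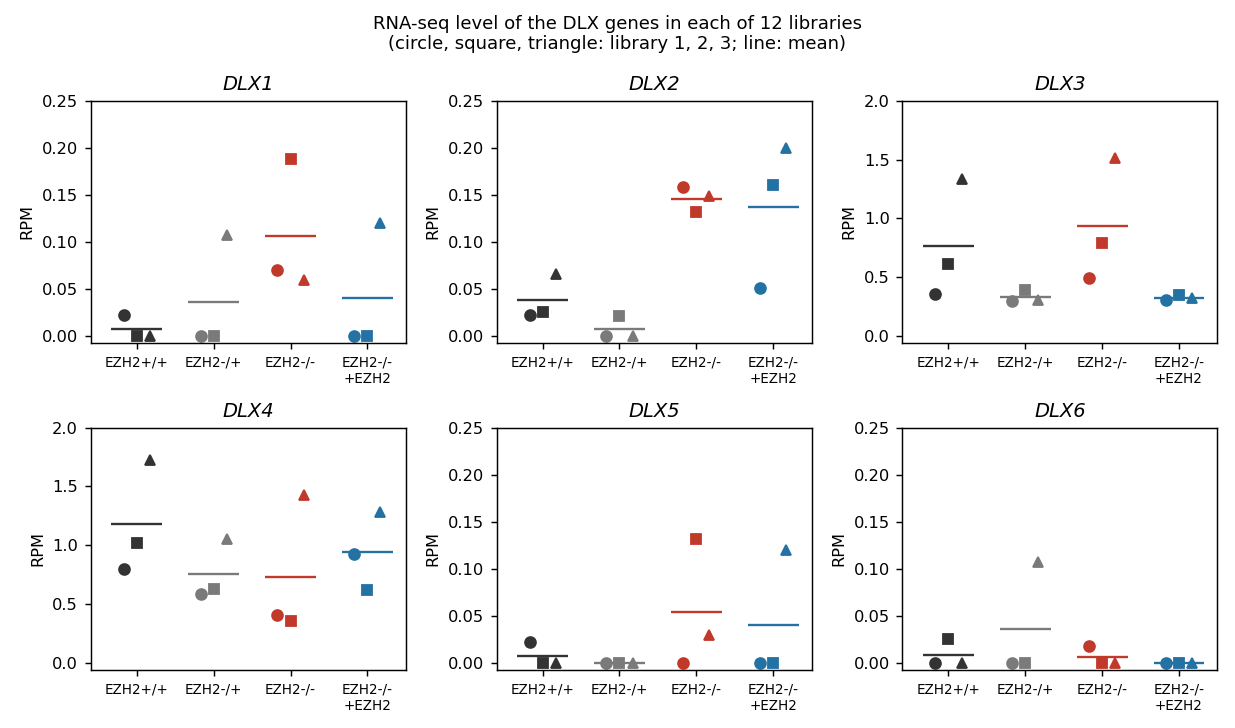
RNA level of each DLX gene in RPM (vertical axis) in the 3 libraries of each state, with a line at the mean; the axis of DLX3 and DLX4 reaches 2 RPM and that of the other genes 0.25 RPM. DLX2 lies at 0.13 to 0.16 RPM in all EZH2-/- libraries and at 0.07 RPM or less in all EZH2+/+ libraries, and DLX4 is highest in library 3 of every state.

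The DLX1-DLX2 pair gave few reads. DLX2 had 1, 1 and 3 reads in EZH2+/+ libraries, 0, 1 and 0 in EZH2-/+, 9, 7 and 5 in EZH2-/-, and 2, 6 and 5 in EZH2-/-+EZH2 libraries. The EZH2+/+ level was 0.0377 ± 0.0242 RPM (SD, n = 3 libraries) and the EZH2-/- level 0.146 ± 0.0136 RPM, with no overlap between those states, and EZH2-/-+EZH2 ESCs were at 0.137 ± 0.0769 RPM. With no filter on low values, DLX2 was the only DLX gene called between EZH2-/- and EZH2+/+ ESCs (adjusted p = 0.024 from limma, for a log2 fold change of 0.85 with a standard error of 0.24), a fit in which 10.4% of genes were called as higher. Its change relative to EZH2-/-+EZH2 ESCs was 0.11 (adjusted p = 0.88 from limma). Summed over libraries, 21 reads in EZH2-/- and 5 in EZH2+/+ ESCs give a ratio of 3.80 (95% counting interval 1.40 to 12.9). The log2 fold changes are smaller than this ratio, as the 0.1 RPM added before taking logs is above the EZH2+/+ level. With 9, 7 and 5 reads, the SD of the EZH2-/- level need not cover the counting error.

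DLX1 had 4, 10 and 2 reads in the EZH2-/- libraries and 1, 0 and 0 in the EZH2+/+ libraries. The EZH2-/+ libraries had 0, 0 and 6 reads and the EZH2-/-+EZH2 libraries 0, 0 and 3. The summed 16 reads in EZH2-/- against 1 in EZH2+/+ ESCs give a ratio of 14.5, with a counting interval from 2.25 to 608. Without a filter on low values the log2 fold change was 0.89 (adjusted p = 0.094 from limma), and it did not pass. This value, too, depends on the 0.1 RPM added before taking logs.

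DLX5 and DLX6 were at or near 0 reads. DLX5 had 0, 7 and 1 reads in EZH2-/-, 0, 0 and 3 in EZH2-/-+EZH2, 1, 0 and 0 in EZH2+/+ and none in EZH2-/+ libraries. DLX6 had 1 read in all EZH2-/- libraries together and none in EZH2-/-+EZH2 libraries. The absence of reads allows up to 3 per library, that is 0.0771 to 0.120 RPM in EZH2-/-+EZH2 ESCs. The 6 reads of DLX6 in EZH2-/+ ESCs were all in library 3, as were the 6 reads of DLX1 and the 4 reads of DLX2-AS1 there. That library also differed in the pluripotency factor NANOG, at 15.8 RPM against 46.4 and 66.0 RPM in the other EZH2-/+ libraries and 20.3 to 24.0 RPM in EZH2+/+ libraries, and the part of this in the reads of DLX genes was not tested. DLX6-AS1 had 2 reads, both in EZH2+/+ library 2. Reads were counted without strand, so a read in exon sequence shared by DLX6 and its antisense gene could come from either.

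The genes beside the pairs were compared between EZH2-/- and EZH2+/+ ESCs, where 31.4% of all genes were called. On chromosome 2, METAP1D (a mitochondrial methionine aminopeptidase) was at 3.85 to 4.48 RPM in EZH2-/- and 5.07 to 5.33 RPM in EZH2+/+ libraries, with a log2 fold change of -0.33 that did not pass (adjusted p = 0.14 from limma). ITGA6 (an integrin) fell by 0.88 (adjusted p = 0.0038 from limma), and was the only one called of 10 genes tested within 500 kb other than DLX genes, or 1 of 3 with the block. On chromosome 7, SHFM1 and ACN9 had changes of -0.30 and -0.26 in the same comparison and were not called (adjusted p = 0.46 and 0.38 from limma). On chromosome 17, 4 of 29 genes tested were called as higher and 5 as lower in EZH2-/- than in EZH2+/+ ESCs (5 and 8 with the block). ITGA3 was among the former, with a change of 0.97 (adjusted p = 0.028 from limma), and KAT7, an acetyltransferase, stayed at 105 to 119 RPM. Between EZH2-/- and EZH2-/-+EZH2 ESCs none of these flanking genes was called in the limma fit, and with the block ITGA6 was (-0.47, adjusted p = 0.016).

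Some other genes of the DLX pathway were called. The lists of genes and markers from here on were chosen with earlier results of these data known. Their counts beside the shares of all genes are therefore a description. From a list of 20 signals and factors tied to DLX genes in forebrain, face, limb and ectoderm, mostly as acting before them, 15 were tested. Whether each of them, HAND2 included, acts before or after the DLX genes was not tested. In EZH2-/- relative to EZH2+/+ ESCs 6 were called as higher and 2 as lower (12.6% and 18.8% of all genes were), with a median of 0.64 against -0.13 over all genes. HAND2, a factor of the lower jaw and heart, rose by 3.86 (adjusted p = 0.0029 from limma), a value that depends on the 0.1 RPM added before taking logs, since it had 1 read in all EZH2+/+ libraries together. It was at 0.158, 3.30 and 4.19 RPM in EZH2-/- libraries. FGF8, a growth factor of forebrain and limb, rose by 3.58, and BMP4, a growth factor that patterns ectoderm, rose by 3.11, from 1.98 to 3.52 RPM in EZH2+/+ libraries to 12.6 to 29.9 RPM in EZH2-/- libraries. EDN1, the endothelin that turns on DLX5 and DLX6 in the lower jaw, rose by 2.88 (adjusted p = 0.0015 from limma). GSX1, GSX2 and NKX2-1, ventral forebrain factors, were under 0.1 RPM on average and were not tested.

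Of the 20 genes listed as targets of DLX proteins or acting after them, 18 were found and 15 tested, and 3 were called as higher and 3 as lower in EZH2-/- relative to EZH2+/+ ESCs (5 and 3 with the block), where 12.6% and 18.8% of all genes were, with a median of 0.10. GAD2, which makes GABA, rose by 3.56, FOXC1 by 3.03 and LHX6, a factor of cortical interneurons, by 2.75. LHX6 was at 4.33 to 8.15 RPM in EZH2-/- libraries and 0.64 to 0.81 RPM in EZH2+/+ libraries, with 1.37 to 1.47 RPM in EZH2-/-+EZH2 libraries. NRP2, a receptor on migrating neurons, fell by 1.59 (adjusted p = 0.013 from limma).

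Of 18 related homeobox genes, 11 were tested. In EZH2-/- relative to EZH2+/+ ESCs 4 were called as higher and 1 as lower (12.6% and 18.8% of all genes were), with a median of 0.76. VAX2, a factor of the ventral eye, was at 1.88 to 2.08 RPM in EZH2-/- libraries, had no read in EZH2+/+ and EZH2-/+ libraries and was at 0 to 0.12 RPM in EZH2-/-+EZH2 libraries. Between EZH2-/- and EZH2-/-+EZH2 ESCs it rose by 3.72 (SE 0.31, adjusted p = 7.0e-05 from limma). Relative to EZH2+/+ ESCs, EMX1 rose by 2.37, VENTX by 1.70 and HHEX by 1.54 in EZH2-/- ESCs, whereas EMX2 fell by 1.84. MSX1, which works beside DLX genes in the facial arches, was called as higher when EZH2-/- was set against EZH2-/-+EZH2 ESCs (2.28, adjusted p = 0.039 from limma). Against EZH2-/-+EZH2 ESCs the counts were 3 of 15 for the first list (HAND2, GATA3 and BMP4), 3 of 15 for the second (FOXC1 and LHX6 among them) and 2 of 11 for the third, all as higher, where 2.63% of all genes were. With the block on library numbers these counts were 5, 4 and 5.

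Markers of other cell types were called as well, in a comparison in which 12.6% of all genes were called as higher. Of 9 surface ectoderm and placode markers tested, 7 were called as higher in EZH2-/- than in EZH2+/+ ESCs, with their summed level at 1182 to 2109 RPM against 437 to 538 RPM, and KRT5 and KRT14 had no read. For trophoblast and amnion it was 7 of 8 (38.7 to 78.1 against 14.1 to 18.8 RPM, with CGA and VGLL1 without a read), for mesoderm 6 of 9 (136 to 207 against 48.4 to 73.3 RPM), for endoderm 4 of 8 (173 to 477 against 27.6 to 62.6 RPM), for neural crest 3 of 10, with 2 lower (90.8 to 99.5 against 35.2 to 42.3 RPM) and for ventral forebrain 2 of 6 (47.5 to 51.3 against 27.6 to 37.2 RPM). Of 12 markers of ESC identity 8 were higher and 1 lower in EZH2-/- than in EZH2+/+ ESCs (median change 0.80). In EZH2-/-+EZH2 relative to EZH2+/+ ESCs 7 were higher and 0 lower (median 0.77), where 10.3% of all genes were called in either direction. Between EZH2-/- and EZH2-/-+EZH2 ESCs 1 of the 12 was called as higher and 0 as lower, with a median of 0.06. Relative to EZH2-/-+EZH2 ESCs, 3 of 9 surface ectoderm and placode markers were called as higher and 4 of 8 for trophoblast and amnion. For mesoderm it was 2 of 9, for endoderm 3 of 8, for neural crest 3 of 10 and for ventral forebrain 2 of 6. In that comparison 2.63% of all genes were called as higher. The surface ectoderm sum was 788 to 887 RPM in EZH2-/-+EZH2 libraries. KRT8, KRT18, CDH1 and EPCAM are in that list, and GATA3 is in more than 1 list. The part of these changes in the DLX values was not tested.

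By the pattern over the 12 libraries, the genes most like DLX3 among 15499 with a mean of at least 1 RPM included P4HB (Pearson r of log2 values 0.91) and WRAP73 (0.90). The 3 most like DLX4 were OCEL1 (0.96), FAHD2A (0.94) and NUP93 (0.94). These are the highest of many values over libraries that share genotype and library number, and they serve as a description.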

How the data were processed

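RNA-seq was analysed in 12 libraries and ChIP-seq in 4 states of EZH2. Both tables hold log2 RPM values as deposited by the authors. They trimmed reads with Trim Galore 0.4.0, aligned RNA reads with TopHat2 2.0.12 and ChIP reads with Bowtie2 2.2.5 to GRCh38, and counted in SeqMonk without strand. RNA values below 1000 reads came out as whole reads in 100% of cases (tolerance 0.02), and values of 0.9 of a read were set to 0. Genes with a mean under 0.1 RPM were left out (20608 of 35805 tested). RNA was tested with limma 3.58.1 in R 4.3.3 on log2(RPM + 0.1) over all 12 libraries with Benjamini-Hochberg adjustment and a threshold of 0.05, which was checked on simulated data. The recovered reads were tested with voom in limma as an alternative, and no negative binomial model was run.

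Deviations of same-numbered libraries correlated in all 18 pairs (0.107 to 0.560, mean 0.332), against a mean of -0.159 over the 36 other pairs. The other pairs ran from -0.489 to 0.245, so the ranges overlapped. The pairing thus comes from the data and is not stated in the labels. ChIP columns of histone marks and input are means made by the authors, over 2 libraries per the labels (the study's text speaks of 3), and EZH2 was taken as 1 library, so they have no test, and intervals cover counting error only (95%). For each gene name 1 window of 5 kb was used, that with the most H3K27me3 in EZH2+/+ ESCs. Read totals on genes ran from 16587860 to 36589089, so 3 reads stand for 0.0528 to 0.120 RPM. From 3 lists of the DLX pathway, up to 4 genes each were named, those with the largest change between EZH2-/- and EZH2+/+ ESCs among the genes called, and other list genes were named after their values were seen. The members and the lists were chosen with earlier results of these data known. Alternatives were other pseudocounts, filters and scalings, the library block and leaving out each library. Some genes of the lists and of the likeness ranking are not reported here.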

Additional observations from a re-analysis of the deposited data

How the results depend on the processing

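Of 228 alternative values for the DLX results, 214 kept their direction and their side of the threshold, or stayed within counting error. Between EZH2-/- and EZH2+/+ ESCs, 0 DLX genes were called, against 1 with no filter on low values (DLX2), 1 with the replicate block (DLX4), 1 with no filter and the block (DLX2, a setting chosen after seeing the data) and 0 to 1 when 1 library was left out (1 without EZH2-/- library 3, DLX4). With the replicate block the change of DLX4 was -0.79 (adjusted p = 0.0385 from limma), and the block changed no other call of a DLX gene. Leaving out 1 library, the change of DLX4 ranged from -1.35 to -0.48 and that of DLX3 from -0.092 to 0.74, the latter turning to -0.089 without EZH2+/+ library 1 and to -0.092 without EZH2-/- library 3. Between EZH2-/-+EZH2 and EZH2+/+ ESCs the change of DLX4 ranged from -0.51 to 0.0049, turning without EZH2+/+ library 3, and that of DLX3 from -1.24 to -0.42, and between EZH2-/+ and EZH2+/+ ESCs DLX3 ranged from -1.24 to -0.41, neither being called. The cause was not tested. The median H3K27me3 change in EZH2-/- ESCs of -4.23 became -3.78 with a pseudocount of 1 RPM, -3.56 centred on unmarked promoters and -5.14 after subtracting input. In EZH2-/-+EZH2 ESCs it was -0.014 when centred, from -0.27, and that of H3K27ac in EZH2-/- ESCs was 0.47, against 0.23 when centred and 1.73 after subtracting input, where the EZH2+/+ signal is near 0 and the pseudocount sets the value. Over all genes, the number called ranged from 137 to 1937 between EZH2-/- and EZH2-/-+EZH2 ESCs (650 as reported), from 10 to 602 between EZH2-/+ and EZH2+/+ (236), from 891 to 4611 between EZH2-/-+EZH2 and EZH2+/+ (2123) and from 4139 to 9637 between EZH2-/- and EZH2+/+ ESCs (6463). Depth limits DLX1, DLX2, DLX5 and DLX6, which had at most 10 reads in a library.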
